A study of Homo sapiens with 2 samples.

Results

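The genes described here are those of kinesin motors, the mitotic spindle, the centromere and the centrosome. They include 15 transport kinesins, 9 kinesins of cilia and other roles and 3 pseudogenes. They were taken by symbol from the table that names the array's probe sets: KIF with a digit (kinesin motors), CENP with a letter (centromere proteins), CEP with digits (centrosomal proteins), and 13 mitotic genes by full symbol. Symbols with a hyphen were left out, and where a gene had several probe sets the brightest, by its mean of the 2 values, was used. This gave 104 of 14884 named genes: 39 KIF, 17 CENP and 37 CEP genes and 11 of the 13 listed genes, since NUF2 and TPX2 had no probe set named in the table used here. The rule itself uses symbols and brightness, not the differences.

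Total RNA came from UACC62, an established human melanoma line, grown in DMEM with 10% FCS and transfected with a non-targeting siRNA (control, 1 array) or an siRNA specific for FOSL1 (1 array), and cells were harvested after 3 days. FOSL1, also called FRA1, is an AP-1 transcription factor, and the series title concerns its part in melanocyte reprogramming and transformation. Whether the FOSL1 siRNA was 1 sequence or several is not known from the labels, and its off-target effects cannot be told apart from loss of FOSL1. With 1 array per condition there was no replicate, so no p-value is given and every difference describes these 2 arrays.

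Kinesins are motor proteins that walk along microtubules. Some drive the mitotic spindle and others carry vesicles or serve cilia. CENP proteins form the centromere platform on which the kinetochore is built, and the kinetochore grips spindle microtubules while checkpoint kinases delay anaphase until all chromosomes are attached. CEP proteins build the centrosome and its centrioles, which also template the cilium. Transcripts of many mitotic genes are high in G2 and mitosis and low in quiescent cells. In bulk RNA, a larger share of cells in a phase of the cycle and more RNA per cell cannot be told apart.

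FOSL1 itself gave 11.90 on the control array and 10.38 on the FOSL1 siRNA array (log2), 2.88-fold lower. Of 7 named melanocyte markers, 5 were at or above the filter on dim genes, while PMEL and TYRP1 were below it and DCT was not named. The 5 lay on both sides of 0, with log2 differences of 0.36 for MITF, 0.12 for MLANA, -0.08 for S100B, -0.30 for SOX10 and -0.34 for TYR. Of the markers of other cell types, 0 of 5 for keratinocytes, 1 of 2 for fibroblasts (LUM, log2 difference 0.48), 1 of 3 for endothelium (KDR, 0.19) and 1 of 2 for leukocytes (CD68, -0.63) were at or above it, and their part in the results was not tested. The filter kept genes whose mean log2 value reached the median of named genes, 8.02. It left 7442 genes and 78 of the 104 members. Differences are log2 values with FOSL1 siRNA minus control, so positive values were higher with FOSL1 siRNA. As a gauge of error within this pair of arrays, the 2 brightest probe sets past the filter were compared for each gene with several. Over 213 genes, the SD of 1 probe set's log2 difference within its gene was 0.17, which leaves out all variation between cultures.

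As a set, the members lay mostly above 0 with FOSL1 siRNA, by small amounts. The median log2 difference of the 78 members past the filter was 0.11, against -0.00 for the 7442 genes, and 58 of 78 members (74.4%) were above 0 against 49.8% of all genes. The middle 50% of these members ran from -0.00 to 0.23, and the whole range from -0.43 to 0.73. A difference of at least 1.2-fold, 0.26 on the log2 scale, was used to describe size. By that measure 14 members were higher, 17.9% of the 78 against 11.1% of all genes, and 3 were lower, 3.85% against 9.78%. Those shares of all genes take no account of gene span, which is described below. At 1.5-fold, 2 members were higher and 0 were lower, where 1.13% and 0.766% of all genes were. The other 26 members had dim probe sets. With them included, 75 of 104 were above 0 (72.1%, against 45.4% of all 14884 genes). Of the 104, 23 were at least 1.2-fold higher (22.1%, against 11.7%) and 5 were lower (4.81%, against 14.8%). The filter used the mean of both arrays, and the control value lay below it and the FOSL1 siRNA value above it for CEP89, which was kept, and for CENPC, CEP19, CEP57L1, CEP126 and CEP152, which were not. KIF19 lay across it in the other direction and was not kept.

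**Figure D1:**
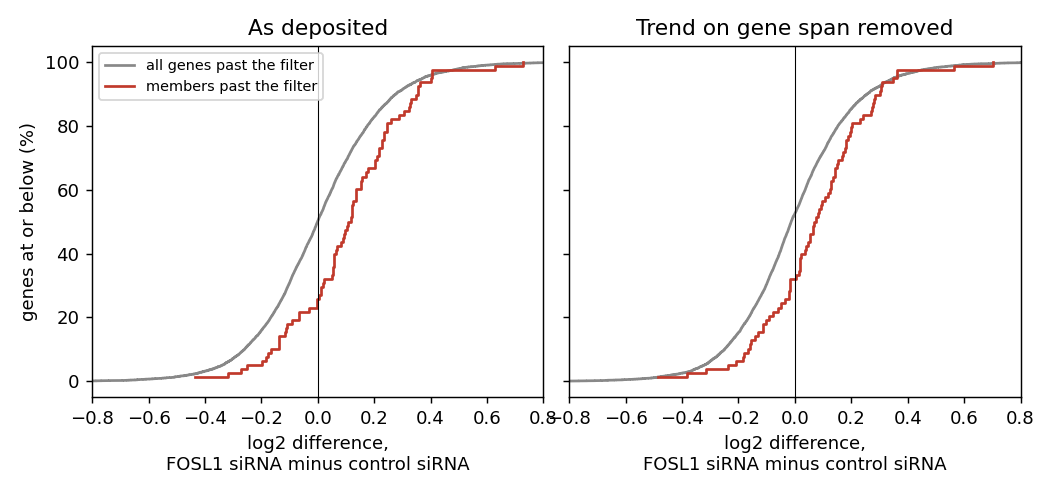
Cumulative share of genes (vertical axis, %) at or below each log2 difference (horizontal axis, FOSL1 siRNA minus control siRNA; drawn for differences of up to 0.8 in size), for the 78 members past the filter (red) and all 7442 genes past it (grey). The left panel uses the deposited values, where the members' median is 0.11. The right panel uses the values after a trend on gene span, fitted over all 14884 named genes, was removed, where the members' median is 0.07.

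Long genes had higher differences than short genes in these arrays, and the members were long. The median span, from the first to the last base of a gene in RefSeq (GRCh38.p14), was 45.4 kb for the members past the filter and 27.4 kb for all genes past it. Across all 7442 genes, the difference and the log10 span had a Pearson correlation of 0.33 (Spearman 0.34), and across the 78 members it was 0.33 (Spearman 0.38). These points are genes measured on the same 2 arrays and are not independent replicates. The 7442 genes were divided by span into 5 groups of about equal number. In the group with the shortest spans, up to 7.78 kb, the median difference of all genes was -0.12 and 3 members were present (median -0.17). In the other groups the members' median was above that of all genes. It was 0.05 for 7 members against -0.05 in the next group, 0.05 for 21 against 0.01 in the middle group, 0.12 for 28 against 0.05 up to 86.8 kb, and 0.22 for 19 against 0.09 beyond that. Across the 5 groups, the share of all genes at least 1.2-fold higher rose from 5.3% to 19.1%. The share lower fell from 21.7% to 3.76%. From the middle group up, 3 of 21, 6 of 28 and 5 of 19 members were higher, against 10.1%, 13.5% and 19.1%. There 0, 2 and 1 were lower, against 6.18%, 4.23% and 3.76%. A loess trend on span was then fitted over all 14884 named genes, dim ones included, and removed. Because it was not fitted to the 7442 alone, part of their own trend may remain, and how much was not tested. With it removed, the median was 0.07 for the members and -0.01 for all genes past the filter. Of the 78 members, 53 remained above 0, against 47.5% of all genes. Then 13 were at least 1.2-fold higher and 3 lower, against 9.65% and 9.04%. The members' median thus kept its sign but was smaller with the trend removed, and no other property of long genes was tested.

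**Figure D2:**
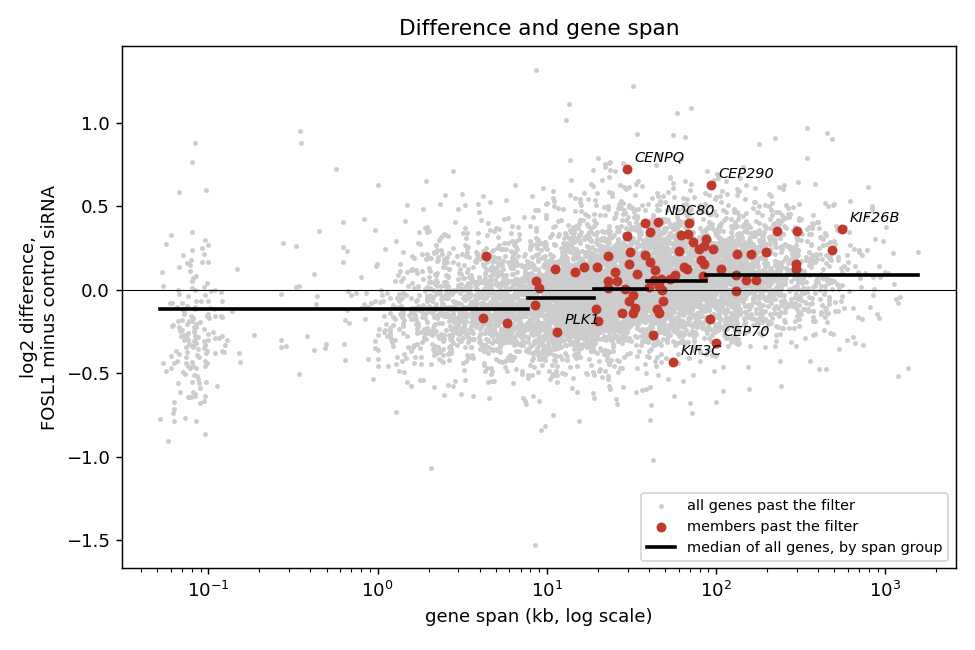
Log2 difference (vertical axis, FOSL1 siRNA minus control siRNA) against gene span in kb (horizontal axis, log scale) for all 7442 genes past the filter (grey) and the 78 members among them (red). Black lines are the medians of all genes in 5 groups of span, from -0.12 in the shortest to 0.09 in the longest; in 4 of the 5 groups the members' median is above that of all genes.

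CENPQ, CEP290 and NDC80 had the highest differences among members past the filter, and KIF3C, CEP70 and KIF26A the lowest. CENPQ, part of the inner centromere network, had log2 values of 8.32 in the control and 9.04 with FOSL1 siRNA, a level 1.65-fold higher. CEP290, of the transition zone at the base of the cilium, had 8.25 and 8.87, 1.54-fold higher. NDC80, the kinetochore protein that binds microtubules, had 9.64 and 10.04, 1.32-fold higher. KIF3C, a kinesin-2 motor of transport, had 10.20 and 9.76, 1.35-fold lower, and it was the lowest of all members. CEP70, a centrosomal protein, had 9.58 and 9.26, 1.25-fold lower. KIF26A, an atypical kinesin, had 8.95 and 8.68, 1.21-fold lower. Each of these genes had 1 named probe set, so no second probe set could be set beside it.

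The promoters of these 6 genes are shown because many mitotic genes carry a short element near their start, the cell cycle genes homology region, whose letters are TTTGAA or its variant TTTAAA. The sequences are RefSeq's (GRCh38.p14), from 250 bases before to 50 after the start, 5′ to 3′ on the gene's strand. They lie at chr6:49463120-49463419 on the plus strand for CENPQ, chr12:88142039-88142338 on the minus strand for CEP290 and chr18:2571307-2571606 on the plus strand for NDC80. Those of the lower genes lie at chr2:25982448-25982747 on the minus strand for KIF3C, chr3:138594211-138594510 on the minus strand for CEP70 and chr14:104138337-104138636 on the plus strand for KIF26A. Capitals mark matches on either strand to TTTGAA, to TTTAAA, to the box CCAAT or to the AP-1 motif TGANTCA, in which N is any base; no matches to different motifs overlapped in these windows.
CENPQ: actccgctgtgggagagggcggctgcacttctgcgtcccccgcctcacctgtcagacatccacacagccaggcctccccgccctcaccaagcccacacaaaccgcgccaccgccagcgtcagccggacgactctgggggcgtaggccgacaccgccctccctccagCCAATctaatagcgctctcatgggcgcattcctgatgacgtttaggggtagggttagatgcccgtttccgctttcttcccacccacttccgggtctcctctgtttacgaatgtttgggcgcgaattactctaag
CEP290: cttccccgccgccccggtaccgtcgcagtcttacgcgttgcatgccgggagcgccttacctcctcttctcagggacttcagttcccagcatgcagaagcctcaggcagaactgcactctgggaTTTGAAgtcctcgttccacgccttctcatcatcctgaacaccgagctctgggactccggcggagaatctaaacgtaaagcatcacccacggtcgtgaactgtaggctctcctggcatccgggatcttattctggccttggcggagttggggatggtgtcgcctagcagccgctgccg
NDC80: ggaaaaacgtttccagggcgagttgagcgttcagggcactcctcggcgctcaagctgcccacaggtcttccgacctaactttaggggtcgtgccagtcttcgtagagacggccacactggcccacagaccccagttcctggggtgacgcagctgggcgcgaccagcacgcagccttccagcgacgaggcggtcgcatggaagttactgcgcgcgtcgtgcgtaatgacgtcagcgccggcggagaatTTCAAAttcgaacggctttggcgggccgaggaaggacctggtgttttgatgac
KIF3C: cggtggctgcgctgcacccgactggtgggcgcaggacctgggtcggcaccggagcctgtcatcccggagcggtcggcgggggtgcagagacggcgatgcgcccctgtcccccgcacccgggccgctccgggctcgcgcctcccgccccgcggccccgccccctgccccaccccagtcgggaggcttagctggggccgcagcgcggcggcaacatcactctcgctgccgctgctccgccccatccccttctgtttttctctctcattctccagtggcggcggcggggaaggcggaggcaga
CEP70: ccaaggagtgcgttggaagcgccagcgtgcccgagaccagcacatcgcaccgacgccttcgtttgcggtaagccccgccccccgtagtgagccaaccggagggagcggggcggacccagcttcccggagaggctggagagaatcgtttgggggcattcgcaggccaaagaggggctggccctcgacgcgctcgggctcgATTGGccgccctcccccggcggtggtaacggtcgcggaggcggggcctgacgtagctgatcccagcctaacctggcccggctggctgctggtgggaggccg
KIF26A: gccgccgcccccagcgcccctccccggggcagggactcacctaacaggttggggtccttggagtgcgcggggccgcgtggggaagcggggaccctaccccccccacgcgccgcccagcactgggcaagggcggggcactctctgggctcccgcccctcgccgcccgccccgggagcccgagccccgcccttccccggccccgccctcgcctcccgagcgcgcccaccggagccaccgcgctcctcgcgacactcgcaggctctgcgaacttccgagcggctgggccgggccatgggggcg

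CEP290 and NDC80 each held 1 match to TTTGAA, that of NDC80 on the opposite strand and across its start, and CENPQ and CEP70 each held 1 match to CCAAT. KIF3C and KIF26A held none of the motifs, and their windows had a GC content of 75% and 79.7%. No match to TGANTCA lay in any of the 6 windows, which says only that these letters are not in them.

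The same search was run on all windows of the table, taking the first listed start of each gene, and 86 of the 104 members had one. TTTGAA was found in 32 of the 86 (37.2%) against 15.4% of 27305 windows, and TTTAAA in 12 (14%) against 12.3%. CCAAT was found in 48 (55.8%, against 35.7%) and TGANTCA in 2, CEP97 and KIF21A (2.33%, against 7.76%). The 27305 windows include genes that were not named or were dim, so these shares are not of like sets. Among all genes past the filter, TGANTCA was in 256 windows and not in 5740, against 2 and 66 for the members past it. For CCAAT the counts were 2196 and 3800, against 41 and 27, and for TTTAAA 426 and 5570, against 11 and 57. Those for TTTGAA are given below. Over all listed starts of a gene, TTTGAA was found in 33 of the 86 members (38.4%), against 18.2% of genes. Among members of mitotic and centromere roles TTTGAA was found in 19 of 37 (51.4%), and among CEP genes in 12 of 31 (38.7%). Of the members past the filter, the 28 with TTTGAA had a median difference of 0.17 and the 40 without it 0.06. Over all genes past the filter the medians were 0.06 for the 595 with TTTGAA and 0.00 for the 5401 without. After removal of the span trend the members' medians were 0.15 and 0.02. The split was narrower for TTTAAA, with medians of 0.12 for 11 members with it and 0.10 for 57 without. For CCAAT it ran the other way, with 0.10 for 41 with it and 0.12 for 27 without. With the span trend removed, the medians with and without were 0.14 and 0.05 for TTTAAA, and 0.07 and 0.06 for CCAAT, where the order turned. The 2 members with TGANTCA had a median of 0.04 and the 66 without it 0.12. The median spans of the 28 and the 40 were 46.2 and 48.4 kb. Roles were not set apart in these medians. Outside the mitotic, centromere and CEP genes, KIF5B alone among the members held TTTGAA, so the groups with and without it differ in role. A match is a description of letters, and whether any factor binds there was not measured.

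The mitotic kinesins lay above 0 in 12 of 13 genes past the filter, with a median difference of 0.12. KIF14, which acts in cytokinesis, had log2 values of 10.08 and 10.48, 1.32-fold higher with FOSL1 siRNA. KIF11, also called Eg5, which pushes spindle poles apart, had 10.77 and 11.10, 1.26-fold higher. KIF18A, which damps chromosome movements on the spindle, had 9.76 and 10.06, and KIF20B, of late mitosis, had 8.74 and 9.03. Their differences of 0.30 and 0.29 were past 1.2-fold in the deposited values but were 0.24 and 0.23, under it, when the span trend was removed. The other members of this role past the filter were within 1.2-fold: KIF20A and KIF23, both of cytokinesis, had differences of 0.05 and 0.10, KIF18B, which acts on microtubule ends, had 0.05, KIF15, which can share the work of KIF11, had 0.12, and the chromosome-arm motors KIF22 and KIF4A had 0.10 and 0.09. KIF4B had 0.20, but it is a near-identical copy of KIF4A, so the probe sets may share signal and its value is uncertain. KIF2C, a kinesin that takes microtubules apart at centromeres, was the 1 member of the role past the filter that lay below 0, with log2 values of 10.03 and 9.89. The related KIF2A was at 0.16. KIF2B and KIF25 had dim probe sets, with differences of -0.26 and -0.03.

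The 4 kinetochore and checkpoint genes that were named were all above 0, with a median of 0.22. NDC80 is given above. BUB1B, the checkpoint protein BUBR1, had log2 values of 9.74 and 9.98, and TTK, the checkpoint kinase MPS1, had 10.10 and 10.31. BUB1, a kinase of the same checkpoint, had 10.73 and 10.90. Only NDC80 was past 1.2-fold, since the differences of the others were 0.23, 0.21 and 0.17. With the span trend removed the 4 genes had a median of 0.18.

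The mitotic kinases and cyclins lay on both sides of 0, and none of the 6 was past 1.2-fold. PLK1, the kinase of mitotic entry and spindle assembly, had log2 values of 12.68 and 12.42, a difference of -0.25. AURKB, the kinase that corrects faulty attachments, had 11.77 and 11.57, a difference of -0.20. AURKA, the centrosomal Aurora kinase, had 10.22 and 10.23, a difference of 0.01 that was -0.02 when a trend on mean log2 value was removed and so has no direction. CDK1, which drives entry into mitosis, had 9.50 and 9.63, and its partners had 10.17 and 10.29 for CCNB1 and 10.82 and 10.96 for CCNB2. The differences of CDK1, CCNB1 and CCNB2 were 0.14, 0.12 and 0.14. PLK1 and AURKB are short genes, of 11.5 and 5.84 kb, and with the span trend removed they were at -0.21 and -0.13. MKI67, which encodes the proliferation marker Ki-67, had 11.25 and 11.57, 1.25-fold higher. PLK1, AURKB, MKI67, KIF5B and CENPX had the highest mean log2 values of the 2 arrays among members, on probe sets whose levels cannot be set against each other.

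**Figure D3:**
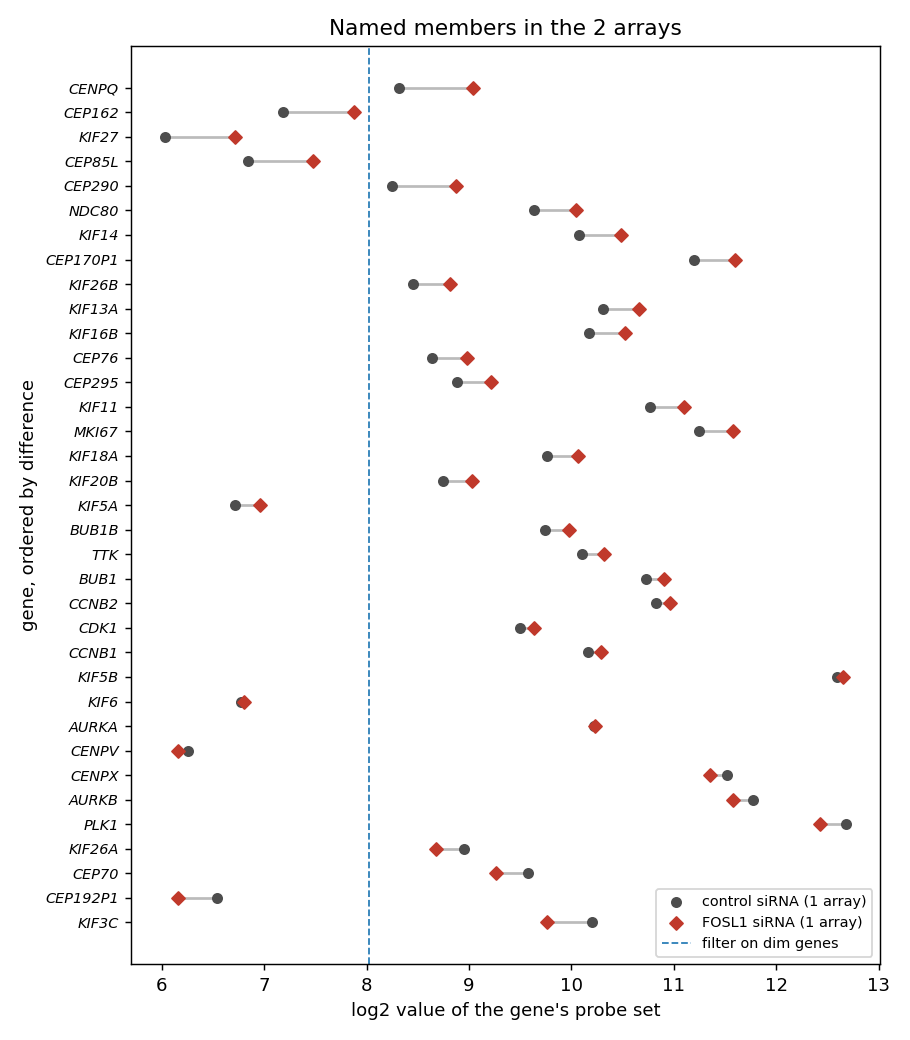
Log2 values (horizontal axis) of 35 members in the control array (grey circles) and the FOSL1 siRNA array (red diamonds), ordered by difference on the vertical axis; the dashed line is the filter on dim genes at 8.02. These are the members past 1.2-fold, those listed by full symbol, the member with the largest difference of each role, and the 5 with the highest and 5 with the lowest mean log2 values. The gap is widest for CENPQ among genes right of the line (8.32 and 9.04), and PLK1, AURKB and CENPX, at the bright end, lie lower with FOSL1 siRNA.

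Genes of the constitutive centromere network, the complex that stays on centromeric chromatin through the cell cycle, lay on both sides of 0, with CENPQ the highest. Of the 11 past the filter, 8 were above 0, and the median was 0.05. That median was 0.02 with the span trend or the trend on mean log2 value removed, 0.00 over the 5 genes past the 75th percentile filter and 0.09 over all 14 without a filter. CENPO, CENPU and CENPP, which form a subcomplex with CENPQ, had differences of 0.00, 0.02 and 0.12, beside the 0.73 of CENPQ. CENPK, CENPL and CENPI had 0.12, 0.11 and 0.08, and CENPN, which reads the centromeric nucleosome, had 0.05. CENPM, CENPX and CENPT were below 0, at -0.19, -0.17 and -0.12. CENPC, CENPH and CENPW had dim probe sets and differences of 0.34, 0.29 and 0.24. CENPA, the histone variant that marks the centromere, had log2 values of 10.33 and 10.24. CENPV was dim, with a difference of -0.10.

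The CEP genes of the centrosome were mostly above 0. Of 20 past the filter, 15 were above 0 and the median was 0.15. CEP76, which limits centriole duplication, had log2 values of 8.64 and 8.98, 1.27-fold higher, and CEP295, which turns new centrioles into centrosomes, had 8.88 and 9.21, 1.26-fold higher. CEP135 and CEP120, both needed to build centrioles, had differences of 0.26 and 0.25, just under 1.2-fold, and CEP192, which recruits the material around centrioles, had 0.22. CEP152, the scaffold for the duplication kinase PLK4, had a dim probe set with values of 7.61 and 8.04. CEP85L and CEP57L1 were dim as well, with differences of 0.63 and 0.40. CEP55, of the final cut between daughter cells, was at -0.03, and CEP97, a cap of centrioles, was at 0.02. CEP170 was at -0.00, which gives it no direction, whereas the pseudogene CEP170P1 had values of 11.19 and 11.59, 1.32-fold higher. The pseudogene shares sequence with CEP170, so its value is uncertain. The other genes of this role past the filter lay between -0.14 (CEP170B) and 0.24 (CEP128), apart from CEP70, and the dim CEP295NL, CEP250, CEP126 and CEP44 between 0.06 and 0.24. Raising the filter to the 75th percentile of log2 values left 8 genes of this role, with a median of 0.01.

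Of the CEP genes of the cilium, CEP290 and CEP162 stood highest. CEP162, which helps place the transition zone, had values of 7.18 and 7.87, 1.61-fold higher, but both values were below the filter on dim genes. CEP19, a small protein that starts cilium assembly, was dim with a difference of 0.38. The distal appendage genes CEP164 and CEP89 lay on opposite sides, at -0.18 and 0.24. CEP131 was at -0.11, CEP78 at 0.12 and CEP41 at -0.00. The 6 past the filter had 3 above and 3 below 0.

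Transport kinesins differed among themselves. Of 10 past the filter, 7 were above 0 with a median of 0.06, and that median was 0.03 with the trend on mean log2 value removed and -0.00 with the span trend removed. KIF13A, which carries endosomal cargo to melanosomes in pigment cells, had values of 10.31 and 10.66, and KIF16B, a motor of early endosomes, had 10.17 and 10.52. Both were 1.28-fold higher. KIF13B had a difference of 0.23. KIF5B, the conventional kinesin, had 12.59 and 12.65. KIF3A and KIF3B, also kinesin-2 motors, had -0.07 and 0.09, beside the -0.43 of KIF3C. KIF1B was at 0.06 by its brighter probe set and at -0.11 by its other one, which gives it no direction. KIF5A and KIF5C, the neuronal forms of KIF5B, were dim, at 0.25 and 0.29. KIF1C was at -0.07 and KIF21A at 0.06, and the dim KIF21B, KIF1A and KIF17 were at -0.16, -0.08 and -0.04.

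Kinesins of cilia and other roles were split, with 2 above and 2 below 0 among the 4 past the filter. KIF26B had values of 8.45 and 8.82, 1.29-fold higher, and its relative KIF26A was lower as given above. KIF7, a regulator of Hedgehog signalling in cilia, was at -0.14 and KIF24, of the centriole cap, at 0.18. KIF27 had the highest difference of the role, with dim values of 6.04 and 6.72, but its other 2 probe sets gave 0.31 and -0.25. The other dim kinesins of this role were KIF19 (-0.28), KIF12 (-0.16), KIF9 (0.07) and KIF6 (0.03, or -0.04 with the span trend removed). Of the 2 remaining pseudogenes, CENPBD2P was at 0.01, and the dim CEP192P1 was at -0.38 by its brightest probe set and at -0.22 and 0.14 by the other two.

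**Figure D4:**
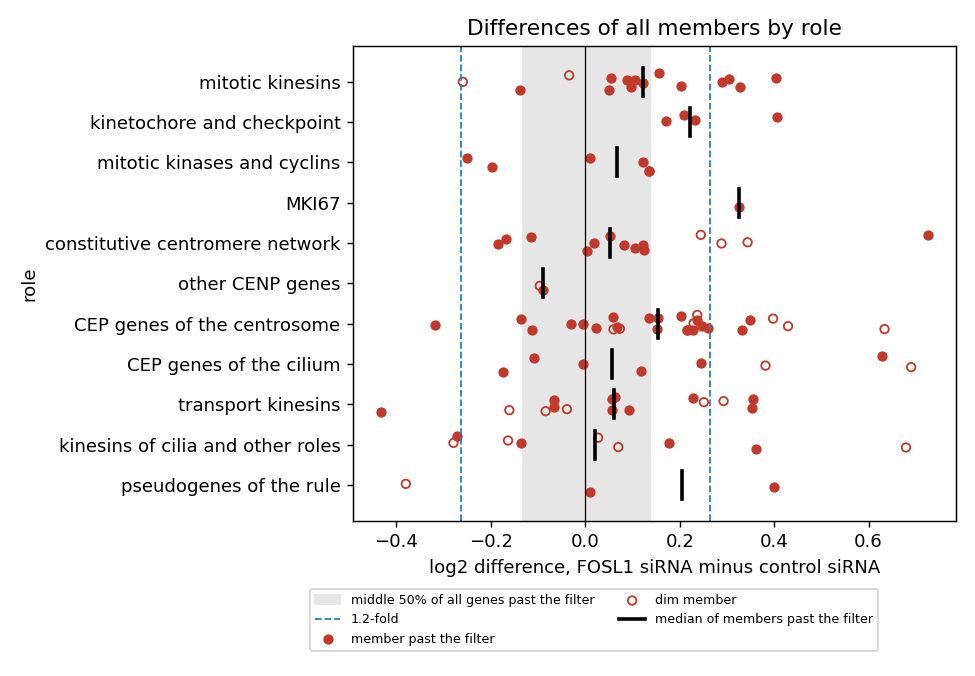
Log2 difference (horizontal axis, FOSL1 siRNA minus control siRNA) of all 104 members, in rows by role on the vertical axis. Filled points passed the filter, open points were dim, black bars are medians of the filled points, the grey band holds the middle 50% of all genes past the filter and dashed lines mark 1.2-fold; the kinetochore and checkpoint genes all lie right of the band's right edge, while the kinases and cyclins fall on both sides of 0.

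Genes outside the symbol rule that work with the members were read from lists chosen for their role. Of 26 other kinetochore, passenger and checkpoint genes, 17 were named and past the filter, with 10 above and 7 below 0 and a median of 0.20; 5 were at least 1.2-fold higher (29.4%) and 0 lower, beside 11.1% and 9.78% of all genes. MAD2L1, the checkpoint protein that inhibits anaphase, had values of 9.54 and 9.93, and SGO1, which protects sister chromatid cohesion, had 9.99 and 10.35. Of 26 other genes of G2 and mitosis, 20 were named and 19 past the filter, with 3 higher (15.8%), 0 lower and a median of 0.10, and 14 were above 0. HMMR, a spindle protein, had 9.71 and 10.09, and CDC25C, the phosphatase that activates CDK1, had 7.87 and 8.21. Of 29 other centriole and centrosome genes, 12 were named and 11 past the filter, with 2 higher (18.2%), 0 lower and a median of 0.17, and 10 were above 0. The 17 without a named probe set include all TUBG1, TUBGCP and HAUS genes of the list, so the median leaves these out. PLK4, the kinase that starts centriole duplication, had 7.76 and 8.40, 1.55-fold higher, and AKAP9, a large scaffold of centrosome and Golgi, had 8.39 and 9.00, 1.53-fold higher. The control value of PLK4 and of CDC25C lay below the filter. In the list of G1 and S cyclins, kinases and E2F genes, 17 of 18 were past the filter, with 1 higher (5.88%), 2 lower (11.8%) and a median of 0.02, and 11 were above 0. E2F7, a repressor of the cell cycle programme, had 11.14 and 10.69, 1.37-fold lower, and RB1, the retinoblastoma protein, had 10.17 and 10.47. RB1 was the 1 higher gene of this list, at 0.30, and was under 1.2-fold, at 0.23, with the span trend removed. With the span trend removed, the medians of these 4 lists were 0.16, 0.06, 0.13 and 0.05, against -0.01 for all genes. Of all genes past the filter, 49.8% were above 0 in the deposited values.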

How the data were processed

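The values deposited by the authors were 1 number per probe set on each of 2 arrays, in a range from 2.23 to 14.8 that was read as log2 intensity. The log base, background correction and summarisation are not given in the sources used here. Per the labels' protocols, 100 ng of total RNA was amplified and labelled with biotin. Both arrays had a median of 6.88 to 6.89, and sorted values differed by at most 0.0301, so a change in total RNA per cell cannot be seen.

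From these values, differences of log2 values were computed with Python 3.11.15, pandas 2.3.3 and statsmodels 0.14.6 (loess, fraction 0.3). The trends on log2 value and on span were fitted over all 14884 named genes, dim ones included. Symbols came from the platform table, which gave 1 symbol to 16098 of 53427 probe sets and several to 0; the other 37329 were left out. All 104 members matched RefSeq by Entrez ID with the same symbol. The scripts were tested on simulated data. The members and lists were chosen with earlier results of these data known. The genes named were members past 1.2-fold, those of full symbol, the largest of each role, the 5 brightest and 5 dimmest, and 2 genes of each other list; the other members named were chosen after their values were seen. Alternatives covered scaling, trends on log2 value and span, the filter, probe sets, membership and the fold threshold.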

Additional observations from a re-analysis of the deposited data

How the results depend on the processing

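With 1 array per condition, no alternative measures variation between cultures. The members' median of 0.11 kept its sign and stayed within 1.5 times under the other alternatives run, but was 0.0709 with the trend on gene span removed. Some of those alternatives could hardly move it. Sorted values of the 2 arrays differed by at most 0.0301 before any scaling, and 101 of the 104 members had 1 probe set. The members at least 1.2-fold higher and lower numbered 23 and 5 with no filter, 8 and 1 at a 75th percentile filter (where 33 of 47 members were above 0, and 7.23%, 6.75% and 50.9% of 3721 genes were higher, lower and above 0), and 2 and 0 at 1.5-fold, settings that change how many genes are counted or the size asked for. Removal of the span trend put the median of transport kinesins at -0.000252 and that of kinesins of cilia and other roles at -0.0319, below 0, and the cause was not tested. Of 175 values of the 35 named members under alternatives, 173 shifted by under 0.17, the SD given above. The 2 that shifted by more were the means over probe sets of KIF27 (0.25) and CEP192P1 (-0.15). Only these genes of the 35 had several probe sets, so the mean over probe sets could not shift the others. Centring moves every gene by the same amount, so the count of 173 is no measure of error. The sign turned for AURKA and KIF6, both near 0. No paired analysis was possible because each condition has 1 array.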

Other observations

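Of 17 listed genes of condensin and cohesin, 9 were named and all were past the filter. All 9 were above 0, against 49.8% of all genes, with a median of 0.16. With the trend on gene span removed the median was 0.12 and 8 of 9 were above 0, against 47.5% of all genes. Their median span was 53.2 kb. In the span group from 39.1 to 86.8 kb, 62.2% of all genes were above 0 in the deposited values. STAG1, a cohesin subunit, had log2 values of 8.79 and 9.11, and NIPBL, which loads cohesin, had 10.37 and 10.64. With the span trend removed their differences were 0.26 and 0.20. Then 0 of the 9 were at least 1.2-fold higher, beside 9.65% of all genes. In the deposited values 3 were (33.3%, against 11.1% of all genes). None of the condensin NCAP genes listed was named in the table used here.

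Of 26 kinesin partners and dynein genes, 16 were past the filter, with 6 above 0 (37.5%, against 49.8% of all genes) and 10 below. Their median was -0.08, or -0.10 with the span trend removed. The 9 without a named probe set were DYNC1H1, DYNC1I1, DYNC1I2, DYNC1LI1, DYNC1LI2, DYNLL1, DYNLL2, DYNLRB1 and PAFAH1B1, so the median leaves these genes out. KIFAP3, the subunit that pairs with the kinesin-2 motors KIF3A and KIF3B, had values of 11.22 and 11.55, and BICD2, an adaptor of dynein, had 10.08 and 9.81. The anaphase-promoting complex and its substrates had a median of -0.03 over 17 genes, with 2 at least 1.2-fold higher (11.8%) and 1 lower (5.88%), near the 11.1% and 9.78% of all genes. ANAPC13, a small subunit, had 11.40 and 10.99, and FBXO5, an inhibitor of the complex, had 9.10 and 9.43.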
